A study of Nematostella vectensis with 17 samples.

Results

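Paired Brachyury peaks are places in the genome of the sea anemone Nematostella vectensis where exactly 2 ChIP-seq peaks lay within 1 kilobase of each other. Peaks of the antibody AB1 were kept when a peak of the antibody AB2 overlapped them by at least 1 bp, and these are called shared peaks. Shared AB1 peaks were sorted along each scaffold, neighbouring summits at most 1000 bp apart were joined into chains, and chains of exactly 2 peaks were taken as 2-peak regions. There were 1194 such regions with 2388 peaks, among 7987 chains made from 10607 shared peaks of a list of 14257 AB1 peaks. The regions held 22.5% of the shared AB1 peaks (95% Wilson interval 21.7 to 23.3) and 16.7% of all AB1 peaks. Of the other shared peaks, 6267 were isolated and 1952 lay in 526 chains of 3 or more.

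Brachyury is a T-box transcription factor, which binds DNA through a conserved domain and switches target genes on or off. In vertebrates it is known for its part in mesoderm and notochord formation, while in Nematostella the gene is expressed around the blastopore, the opening through which cells move inward at gastrulation. Regulatory elements often hold several binding sites for a factor, and in a peak list sites close together can appear as separate summits or merge into a single peak.

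Of the 17 samples in the series, the 3 ChIP-seq samples were used here, namely 1 for each of the 2 antibodies and 1 input. Whole embryos were raised at 21 °C to the gastrula stage and fixed in 2% formaldehyde for 12 min, and chromatin was sheared to fragments of 100 to 200 bp on average. Both antibodies came from rabbits injected with full-length Nematostella Brachyury carrying a 6xHis tag and made in bacteria, and the embryos carried no stated mutation. Each antibody gave 1 peak list, so no difference here was set against a spread between replicate libraries, and peaks, which share a library, were not treated as replicates.

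Each peak of the authors' lists came with a summit position and a score. It also had signals for ChIP and control, and a fold enrichment of the former over the latter. Read counts were not in the lists, so depth is unknown, and both lists stopped at a score of 1 and a fold of 2. Almost every AB1 peak was 244 bp wide (14226 of 14257) and almost every AB2 peak was 158 bp wide (15992 of 16005). The smallest distance between neighbouring summits was 142 bp in the whole AB1 list and 81 bp in the whole AB2 list, and closer sites, if any, were not listed as separate AB1 peaks. Intervals given here cover counting error over peaks or regions only. Coordinates are on nemVec1 scaffolds, counted from 1, and genes and DNA sequence at the regions were not analysed here.

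The regions were compact. They ran from the outer edge of the left peak to that of the right peak over 387 to 1244 bp, with quartiles of 552, 692 and 906 bp. Their AB1 summits were 143 to 1000 bp apart, with quartiles of 308, 448 and 662 bp. The spacing was not spread evenly over this range. The fullest 50 bp class was 251 to 300 bp, which held 164 regions (13.7%), followed by 301 to 350 bp with 142 (11.9%). Below it, 82 regions lay at 201 to 250 bp, 33 at 151 to 200 bp and 2 at 101 to 150 bp. Above it the numbers fell to between 37 and 42 regions in each 50 bp class from 751 to 1000 bp. The rise below the fullest class lay near the width of an AB1 peak, and in 101 regions (8.46%) the AB1 peaks overlapped each other. How far the width of the peaks shaped the shortest spacings was not tested.

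The AB2 list gave nearly the same distances in the same places. In 1185 of the 1194 regions (99.2%, 98.6 to 99.6) each AB1 peak had an AB2 partner of its own, the partner being the overlapping AB2 peak used for that AB1 peak. The AB2 partner summits were 94 to 1066 bp apart, with quartiles of 303, 451 and 661 bp, and their fullest 50 bp class was again 251 to 300 bp, with 167 regions (14.1%). Region by region, the AB1 and AB2 distances differed by a median of 23 bp, with quartiles of 11 and 40 bp and a greatest difference of 199 bp. They were within 50 bp of each other in 989 of 1185 regions (83.5%, 81.2 to 85.5), and the median signed difference was -1 bp. These distances were not independent of the rule, since an AB2 partner had to overlap its AB1 peak. Single summits were matched about as closely as elsewhere: 2206 of the 2388 peaks (92.4%) had the AB2 summit within 50 bp, beside 92.8% of all shared AB1 peaks.

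**Figure D1:**
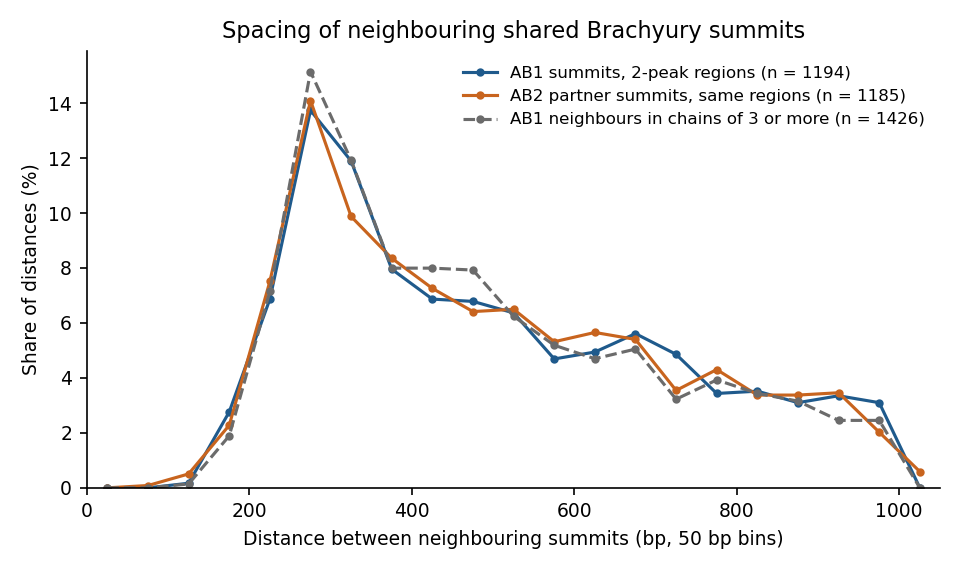
Share of distances between neighbouring summits (percent, y axis) in 50 bp classes of distance (bp, x axis) for AB1 summits of the 2-peak regions, their AB2 partner summits, and neighbouring AB1 summits in chains of 3 or more. All 3 lines peak at 251 to 300 bp, at 13.7%, 14.1% and 15.1%.

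The plot of spacing also shows the neighbours inside longer chains. There, 216 of 1426 distances (15.1%) fell at 251 to 300 bp, so the fullest class was the same in regions of 2 peaks and in chains of 3 or more. When the AB2 peaks that overlap an AB1 peak were chained by their own summits, 1319 regions of 2 peaks were found, with a median spacing of 354 bp. Their fullest class was also 251 to 300 bp, with 159 regions (12.1%). That list held far more short distances, with 123 regions (9.33%) at 101 to 150 bp and 147 (11.1%) at 151 to 200 bp. AB2 peaks were the narrower ones, and several could overlap a single AB1 peak.

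Most regions were also pairs in this chaining of AB2 peaks. It placed 1007 of the 1194 regions (84.3%, 82.2 to 86.3) in AB2 chains of exactly 2 peaks and 170 (14.2%) in AB2 chains of 3 or more. Only AB2 peaks that overlap an AB1 peak were chained, so the share of pairs partly follows from the rule. AB2 peaks without an AB1 peak could not lengthen a chain. The other 17 had their partners in different AB2 chains or had the same AB2 partner for both AB1 peaks. A further AB2 peak lay between the AB1 summits in 146 regions (12.2%), and an AB1 peak without an AB2 partner lay between them in 15 (1.26%). The 9 regions in which both AB1 peaks had the same AB2 partner had AB1 spacings of 152 to 222 bp, at the short end of the range.

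The tightest regions lay near the smallest AB1 distance. On scaffold 5, from 1677366 to 1677752, the AB1 summits were 143 bp apart and the AB2 summits 204 bp. The AB1 scores were 2.88 for the left peak, the one at lower coordinates, and 2.73 for the right peak, and the AB2 scores were 3.58 and 3.07. On scaffold 34, from 408018 to 408410, the summits were 149 bp apart with AB1 and 190 bp with AB2, with AB1 scores of 1.38 and 1.5 and AB2 scores of 1.13 and 1.28. In both of these regions the AB2 summits stood farther apart than the AB1 summits. On scaffold 10, from 995076 to 995471, AB1 summits 152 bp apart, with scores of 1.39 and 1.29, faced a single AB2 peak with a score of 1.2.

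At the other end, members just inside and just outside the limit of 1000 bp had scores in the same range. On scaffold 185, from 293750 to 294993, the AB1 summits were 1000 bp apart, with AB1 scores of 1.18 and 4.49 and AB2 scores of 1.72 and 3.47. On scaffold 13, from 690126 to 691368, they were 999 bp apart, with AB1 scores of 3.54 and 1.78 and AB2 scores of 3.21 and 1.68. On scaffold 256, from 255713 to 256955, they were also 999 bp apart, with AB1 scores of 4.85 and 1.06 and AB2 scores of 5.1 and 1.33. The right AB1 peak there had a ChIP signal of 2.18 and a control signal of 0.36. Its score was lowered by a tag distribution score under 1, a factor of the score, found at only 1 of the 2388 AB1 peaks. In these 3 regions both antibodies scored the same peak higher. Just outside the limit, isolated neighbours lay 1001 bp apart on scaffold 208 (AB1 scores of 1.99 and 1.18, AB2 scores of 1.8 and 4.19), 1001 bp apart on scaffold 66 (1.56 and 1.21, and 3.05 and 1.49) and 1002 bp apart on scaffold 96 (3.25 and 1.51, and 5.93 and 1.7).

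The 2 peaks of a region were usually unequal. With AB1, the stronger peak had a median score of 3.21 (quartiles of 2.15 and 5.04) and the weaker a median of 1.70 (1.31 and 2.34), over 1194 regions. With AB2 the medians were 3.20 (2.17 and 4.99) and 1.74 (1.31 and 2.46), over 1185 regions. The ratio of the higher to the lower score had a median of 1.63 with either antibody, with quartiles of 1.25 and 2.42 for AB1 and of 1.25 and 2.40 for AB2. The AB1 ratio was at least 2 in 416 regions (34.8%), at least 5 in 72 (6.03%) and under 1.25 in 297 (24.9%). The higher of any 2 values lies above the lower by construction. The same ratio was therefore taken for 1001 pairs of adjacent isolated peaks that were 1001 to 5000 bp apart. An isolated peak could enter 2 such pairs. Their median ratio was 1.58 with AB1 (1.22 and 2.31) and 1.50 with AB2 (1.18 and 2.31). The middle ranges of the ratio in regions and in isolated neighbours largely overlapped.

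The imbalance of a region was much the same with both antibodies. The log2 ratio of the right to the left score with AB1 and with AB2 had a Pearson correlation of 0.84 and a Spearman correlation of 0.79 over 1185 regions, given as a description. All points share the same 2 libraries, and the labels do not say whether these came from the same embryos. Adjacent isolated peaks gave a Pearson correlation of 0.82 over 1001 pairs of neighbours. Both antibodies scored the same peak higher in 934 of 1182 regions without a tie (79.0%, 76.6 to 81.2). Among adjacent isolated peaks the share was 77.1% of 997 pairs, so the share in the regions was near the background. By fold enrichment in place of score the same peak was higher in 944 of 1182 regions (79.9%).

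**Figure D2:**
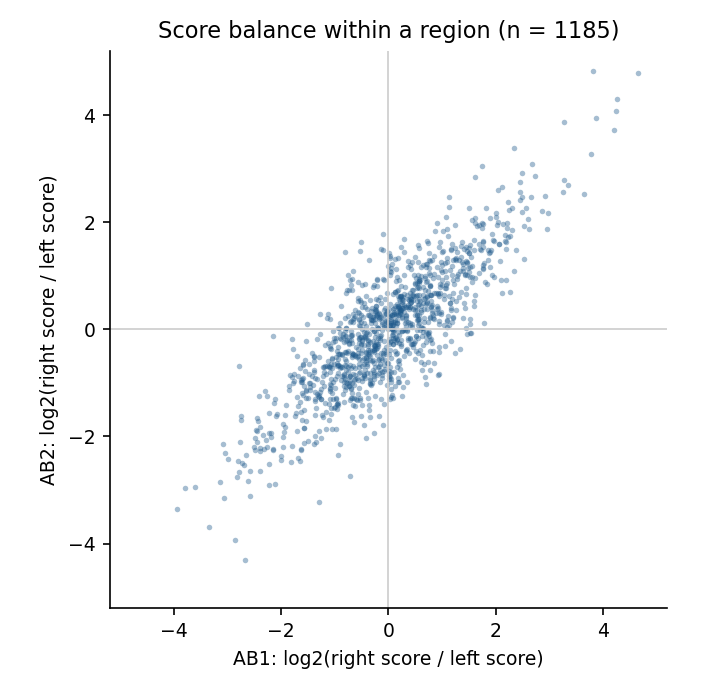
Log2 ratio of the right to the left score with AB1 (x axis) and with AB2 (y axis), with 1 point for each of 1185 regions with separate AB2 partners. Points follow the rising diagonal (Pearson correlation 0.84), and those in the upper left and lower right corners are regions whose stronger peak differed between antibodies.

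How often the antibodies placed the same peak higher varied with how unequal the AB1 scores were. Among regions with an AB1 ratio of 1 to 1.25, it was the same peak in 167 of 288 (58.0%, 52.2 to 63.5). The share was 72.9% (156 of 214) at ratios of 1.25 to 1.5, 79.2% (209 of 264) at 1.5 to 2 and 93.5% (200 of 214) at 2 to 3. At ratios of 3 or more it was 202 of 202, with a lower limit of 98.1%. Nearly equal peaks thus changed order often, and clearly unequal ones kept it. Such a rise follows in part from classing correlated scores by the ratio of 1 antibody. Isolated neighbours were not classed in this way, so whether the rise is particular to the regions was not tested. The AB2 ratio taken in AB1 order rose through the same classes, with medians of 1.12, 1.31, 1.44, 2.02 and 3.74. The AB1 medians in those classes were 1.12, 1.37, 1.71, 2.39 and 4.38. The classes were set on the AB1 ratio, which by itself makes the AB2 ratio smaller in the upper classes, and over all regions both medians were 1.63.

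**Figure D3:**
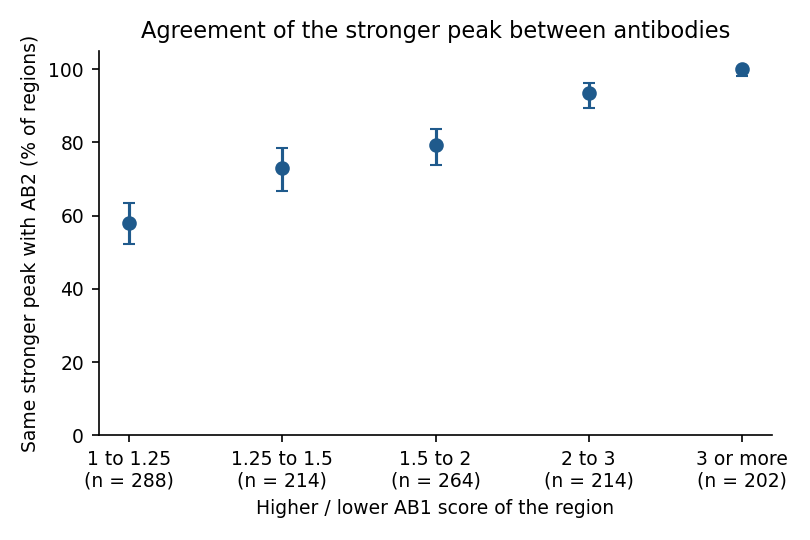
Share of regions in which both antibodies scored the same peak higher (percent, y axis) by class of the ratio of the higher to the lower AB1 score (x axis), with 95% Wilson intervals as bars. The share rises from 58.0% at ratios of 1 to 1.25 to 100% at ratios of 3 or more.

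The 3 most unequal regions had a strong peak beside a much weaker one. On scaffold 222, from 44928 to 45892, the AB1 scores were 1.27 and 32.0 and the AB2 scores 1.06 and 29.32, with summits 721 bp apart in both lists. On scaffold 11, from 466215 to 467254, the AB1 scores were 1.51 and 29.07 and the AB2 scores 1.6 and 31.62, with AB1 summits 796 bp apart. On scaffold 99, from 363729 to 364765, the AB1 scores were 1.86 and 35.43 and the AB2 scores 1.92 and 32.24, with AB1 summits 793 bp apart. The ratios were 25.2, 19.3 and 19.0 with AB1 and 27.7, 19.8 and 16.8 with AB2, so both antibodies gave the same peak the higher score by a similar factor. The weaker peak was at AB1 rank 11348, 9379 and 7114 of 14257, so the first of these lay far down the list and the last near its middle. The highest AB1 score in any 2-peak region was also in an unequal one, on scaffold 10 from 2070081 to 2070673, a region singled out after its values were seen. There the left peak scored 47.62 with AB1, rank 4 of the AB1 list, and 33.13 with AB2, rank 11. Its neighbour 349 bp to the right scored 3.09 with AB1 and 3.24 with AB2.

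The 3 most equal regions changed order between antibodies or had none. On scaffold 568, from 88168 to 88842, both AB1 scores were 1.98, while the AB2 scores were 1.74 and 3.96. On scaffold 134, from 475495 to 476476, the AB1 scores were 1.82 and 1.83 and the AB2 scores 2.29 and 1.34. On scaffold 23, from 449301 to 450516, the AB1 scores were 1.65 and 1.66 and the AB2 scores 2.89 and 1.58. The AB2 ratios were 2.28, 1.71 and 1.83. These regions were picked for AB1 ratios near 1, so an AB2 ratio could hardly be smaller.

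The order of the peaks did not follow their position or their control signal. The stronger AB1 peak was the left one in 606 regions and the right one in 587, with 1 tie. It had the higher control signal in 599 of 1193 regions with AB1 (50.2%, 47.4 to 53.0) and in 589 of 1183 with AB2 (49.8%). The stronger peak had the higher ChIP signal in 94.9% of regions with AB1 and 95.0% with AB2, which follows from the score, since a score is close to the ChIP minus the control signal times a tag distribution score. It had the higher fold enrichment in 81.8% with AB1 and 80.5% with AB2. The control signals within a region also differed less than the scores, by a median ratio of 1.34 in the AB1 list and 1.39 in the AB2 list.

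Ordered in the same way, neighbouring isolated peaks had similar levels. In the 1001 pairs of adjacent isolated peaks the stronger had a median AB1 score of 3.07 and the weaker 1.70, beside 3.21 and 1.70 in the regions. With AB2 these medians were 2.98 and 1.69, beside 3.20 and 1.74. When peaks were ordered by AB1 and read with AB2, the medians were 3.00 and 1.85 in 1182 regions. They were 2.87 and 1.81 in 997 pairs of isolated neighbours without a tie. When they were ordered by AB2 and read with AB1, they were 3.12 and 1.81 in the regions and 2.92 and 1.87 in isolated neighbours. The gap between the stronger and the weaker peak in any of these readings follows from the ordering, since the scores of both antibodies go together, and the readings were compared only between regions and isolated neighbours. In all 4 readings the stronger peak had a slightly higher median in the regions, while the weaker peak was slightly higher in 2, equal in 1 and lower in 1.

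Over both peaks, 2-peak regions lay between isolated peaks and longer chains. The median AB1 score was 2.09 in isolated peaks, 2.23 (2.16 to 2.30) in 2-peak regions and 2.56 in chains of 3 or more. The AB2 medians were 2.05, 2.28 (2.20 to 2.37) and 2.73. The 2-peak median exceeded the isolated one by a factor of 1.07 with AB1 and 1.11 with AB2, while in chains of 3 or more the factors were 1.22 and 1.33. The control signal moved in the same direction, with medians of 0.65, 0.69 and 0.74 in the AB1 list and 0.44, 0.47 and 0.50 in the AB2 list, and its part in the higher scores was not tested. Fold enrichment, which divides by the control signal, had AB1 medians of 4.41, 4.50 and 4.70 and AB2 medians of 6.00, 6.12 and 6.71. It differed little between isolated peaks and 2-peak regions. In chains of 3 or more the fold was 1.07 times the isolated one with AB1 and 1.12 times with AB2. The 2-peak fold was 1.02 times the isolated one with either antibody, and the AB1 factor ran from 0.964 to 1.06 between the bounds of both medians.

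**Figure D4:**
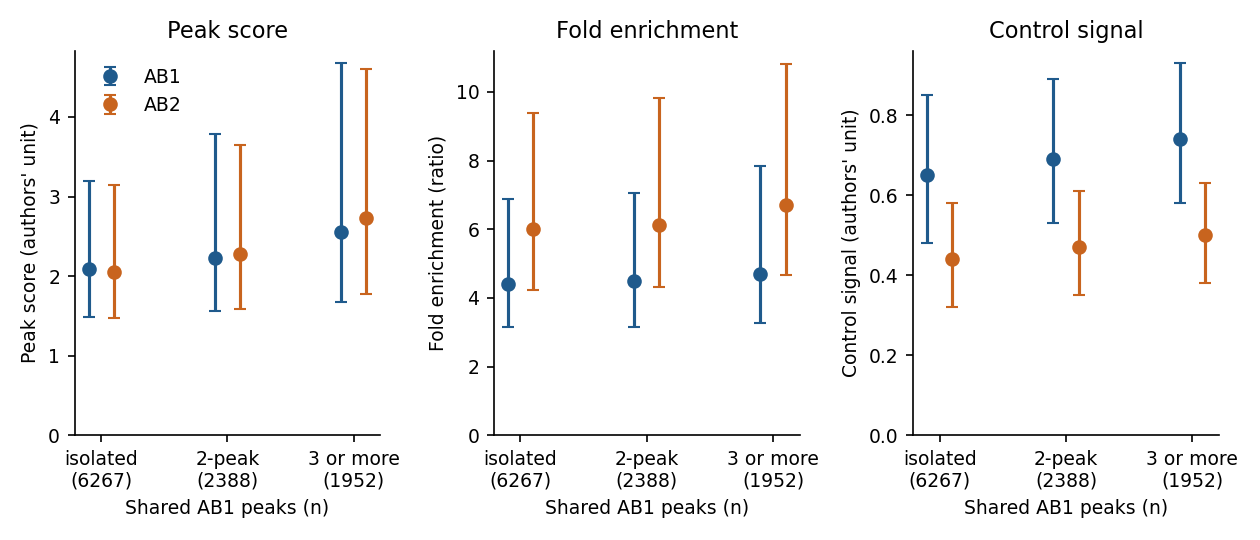
Median score, fold enrichment and control signal (y axes, in the authors' units) of shared AB1 peaks and their AB2 partners in isolated peaks, 2-peak regions and chains of 3 or more (x axis), with quartiles as bars. The medians rise from left to right in each panel, with broad overlap of the quartiles.

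High scores were about as frequent in the regions as among shared peaks as a whole. Of the 2388 peaks, 337 (14.1%, 12.8 to 15.6) were in the top 10% of the AB1 list by score, which began at 5.14, beside 13.2% of all shared AB1 peaks. The AB2 partner was in the top 10% of its list, from 4.82 upward, for 378 peaks (15.8%, 14.4 to 17.3), beside 14.4% of all shared AB1 peaks. These shares were near the background, and lay between 10.2% and 11.0% for isolated peaks and 21.9% and 23.3% for chains of 3 or more. When the shared peaks were sorted by AB1 score into 10 classes of nearly equal size, the share in 2-peak regions varied between 20.6% and 25.5%. The 3 highest shares were in the 3 top classes, at 25.5%, 23.4% and 25.3%, beside 20.6% to 23.3% in the lower classes. Sorting by AB2 score gave 25.3%, 23.8% and 25.4% in the 3 top classes, beside 20.4% to 22.4% in the lower classes. From the lowest to the highest of these classes the isolated share fell from 63.2% to 41.8% and the share in chains of 3 or more rose from 14.9% to 32.9%. The share in 2-peak regions thus differed less between classes than the other shares did.

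Strong peaks came together in a small share of regions. With AB1, both peaks were in the top 10% of the list in 50 regions (4.19%, 3.19 to 5.48), beside 3.3% of 1001 pairs of adjacent isolated peaks. A single peak was in it in 237 regions and neither in 907. With AB2, both were in the top 10% in 62 regions (5.19%, 4.07 to 6.60), beside 3.9% of pairs of adjacent isolated peaks. A single peak was in it in 254 regions and neither in 878. The AB1 share was near that of isolated neighbours, and the lower bound of the AB2 share was just above theirs. The counting error of the share in isolated neighbours was not computed and no test was made, so no excess was established. In 40 regions, on 35 scaffolds, both peaks passed in both lists, while in 838 neither peak passed in either list. The 40 regions had AB1 spacings of 242 to 944 bp with a median of 472 bp, and AB1 ratios of 1.01 to 4.98 with a median of 1.56. By spacing, 1 lay at up to 250 bp, 8 at 251 to 350 bp, 12 at 351 to 500 bp, 11 at 501 to 750 bp and 8 at 751 to 1000 bp.

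The 6 regions whose weaker AB1 peak scored highest are the strongest pairs of the list. On scaffold 59, from 183728 to 184439, summits 468 bp apart had AB1 scores of 12.56 and 13.27 and AB2 scores of 10.6 and 8.71, so the order changed between antibodies. On scaffold 18, from 448457 to 448965, summits 265 bp apart had AB1 scores of 13.95 and 12.26 and AB2 scores of 17.23 and 14.22. The folds of this second region differed far more than its scores, at 93.42 and 14.44 with AB1 and 229.53 and 26.46 with AB2. The control signal there was 0.15 at the left peak and 0.91 at the right peak in the AB1 list, and 0.08 and 0.56 in the AB2 list. A high fold could thus come with a very low control signal and a score like that of its neighbour.

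The other 4 strongest pairs spanned a wide range of spacing and balance. On scaffold 4, from 287795 to 288514, summits 476 bp apart had AB1 scores of 22.65 and 11.59 and AB2 scores of 26.58 and 10.12. On scaffold 6, from 112492 to 113656, summits 921 bp apart had AB1 scores of 12.59 and 11.0 and AB2 scores of 10.04 and 10.19, which reversed the order. These were a clearly unequal and a nearly equal pair. On scaffold 107, from 306761 to 307888, summits 884 bp apart had AB1 scores of 9.75 and 9.96 and AB2 scores of 8.66 and 11.96. On scaffold 157, from 401571 to 402453, summits 639 bp apart had AB1 scores of 9.26 and 17.43 and AB2 scores of 4.51 and 17.86. The left peak of the last region was the only one of these 12 peaks below the top 10% of the AB2 list.

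**Figure D5:**
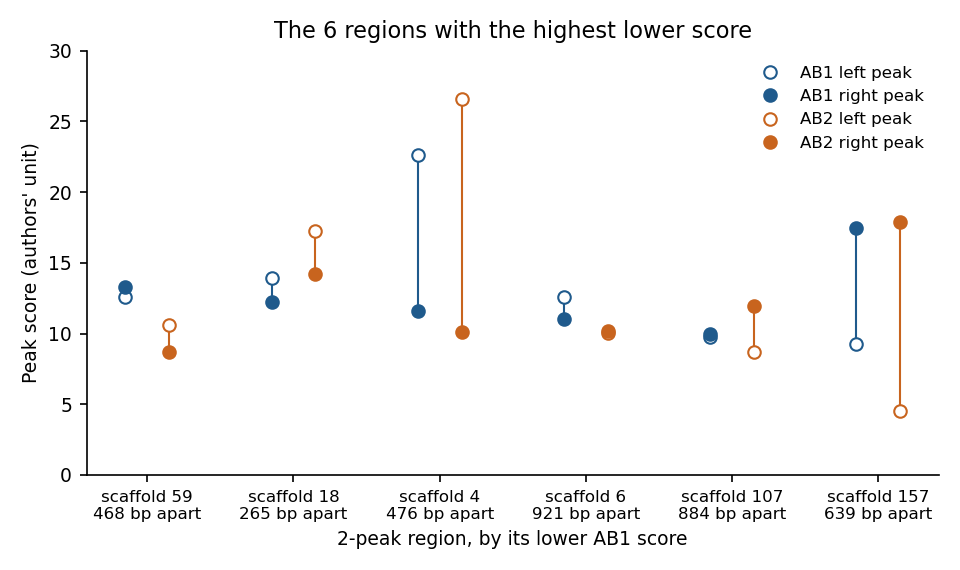
Scores (y axis, authors' unit) of the left and right peak with AB1 and AB2 in the 6 regions with the highest lower AB1 score (x axis, by scaffold and spacing). Lines join the peaks of a region, and the order of left and right changes between antibodies on scaffolds 59 and 6.

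Closely spaced pairs had a lower stronger peak and more similar scores, as a description without a test. The 117 regions with summits at most 250 bp apart had median AB1 scores of 2.36 and 1.53 for the stronger and weaker peak, a median ratio of 1.37 and a median fold of 3.98. The 306 regions at 251 to 350 bp had medians of 3.40, 1.73, 1.66 and 4.64 for the same quantities. At wider spacings the stronger peak had a median AB1 score of 3.44 (351 to 500 bp, 258 regions), 2.91 (501 to 750 bp, 316) and 3.62 (751 to 1000 bp, 197). The median ratio there was 1.66, 1.62 and 1.86. With AB2 the closest regions again had the lowest stronger peak, at 2.75, beside 2.95 to 3.47 in the other classes. Their weaker AB2 peak was not the lowest, at 1.66 beside 1.59 to 1.79. The share of regions with the same stronger peak in both lists varied little with spacing, from 77.0% at 751 to 1000 bp to 82.2% of 107 at up to 250 bp.

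By score, though hardly by AB1 fold enrichment, neighbours also went together more at short distances. Across regions, the log2 AB1 scores of the left and right peak had a Pearson correlation of 0.48 at up to 250 bp (117 regions), 0.19 at 251 to 500 bp (564) and 0.15 at 501 to 1000 bp (513). With AB2 they were 0.25 at 251 to 500 bp and 0.16 at 501 to 1000 bp, and 0.35 at up to 250 bp over the 108 regions with separate partners. Isolated neighbours gave 0.16 with AB1 at 1001 to 2000 bp (509), 0.24 at 2001 to 5000 bp (492) and 0.03 at 5001 to 20000 bp (1245). With AB2 they gave 0.16, 0.17 and 0.02. Beyond 250 bp, correlations in the regions were between 0.15 and 0.25, and those of isolated neighbours up to 5000 bp apart between 0.16 and 0.24. All points of an antibody share 1 library, and the closest peaks overlapped each other in position. The AB1 control signal of neighbours had correlations of 0.46, 0.42 and 0.24 in the same classes of regions. In the classes of isolated neighbours they were 0.39, 0.24 and 0.14, and the part of the control signal was not tested. AB1 fold enrichment gave 0.22, 0.20 and 0.15 in the regions and 0.20, 0.32 and 0.07 in isolated neighbours. By AB1 fold, the closest regions thus did not stand out, and correlations of AB2 fold were not computed.

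The regions were spread over the assembly. They lay on 387 of the 1056 scaffolds with a shared AB1 peak, and 161 of these scaffolds held exactly 1 region. Scaffold 3 held the most, with 24 regions, which took 35.6% of its 135 shared peaks. Scaffolds 1 and 2 followed with 21 each (25.8% of 163 and 22.3% of 188 shared peaks). Among the 47 scaffolds with at least 50 shared peaks the share in 2-peak regions ran from 7.55% to 42.1% with a median of 21.3%, so scaffold 3 was within that range.

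Regions had other shared peaks somewhat nearer than isolated peaks did. The nearest further shared summit was a median of 5451 bp away for 1148 regions and 7755.5 bp away for 5806 isolated peaks, while 46 regions and 461 isolated peaks had none on their scaffold. It was within 2000 bp for 304 regions (26.5%, beside 21.7% of isolated peaks) and within 5000 bp for 549 (47.8%, beside 39.9%). By the rule, regions and isolated peaks alike were more than 1000 bp from the next shared summit. With a join distance of 2000 bp those 304 regions would gain further peaks and 890 would stay pairs, and with 500 bp, 681 would stay pairs and 513 would split into isolated peaks.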

How the data were processed

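The authors deposited 1 peak list for each of 2 antibodies and no replicate lists. Per the file headers, the columns give the position and summit of each peak, its score, signal in ChIP and in control, fold enrichment (ratio), distribution score of tags and FDR. In both deposited lists the score equals ChIP minus control signal times the distribution score, within 0.0203 (AB1) and 0.0294 (AB2). BWA is named in the submitters' processing notes, and the build nemVec1 in the name of the deposited lists. Which program called the peaks, and whether the control signal is the input sample, is not given in the sources used here. The FDR has no stated scale and was not used. Starts were taken as 0-based and are given as 1-based. No column of per-sample values was without a sample (0 columns).

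Overlaps, chains and medians were computed in Python 3.11.15 with numpy 2.4.6, pandas 2.3.3 and scipy 1.17.1. The chaining was checked on simulated peaks, where as many 2-peak regions were found as were made. The choice of partners and the scores were not checked there. Where several AB2 peaks overlapped an AB1 peak, the one with the nearest summit was its partner. With 1 library per antibody there was no test, and p-values were not computed. Wilson intervals of shares and order-statistic intervals of medians (95%) cover counting error only, and the depth in reads is unknown. Named regions were the 6 with the highest lower AB1 score, the 3 with the smallest and the 3 with the largest spacing, the 3 with the largest and the 3 with the smallest score ratio, and the scaffold with the most regions. The members and these rules were chosen with earlier results of these data known. In all, 7 alternatives were tried. The 14 RNA-seq samples were not used, since gene positions on nemVec1 were not analysed here.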

Additional observations from a re-analysis of the deposited data

How the results depend on the processing

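The 7 alternatives changed which peaks were shared, listed or joined. The share of regions with the same stronger peak in both antibodies (79.0%) ranged from 78.7% to 81.1%, and the fold over isolated peaks (1.02) from 0.985 to 1.04, each within its interval, though the latter fell to 0.998 with AB2 peaks chained and 0.985 with all AB1 peaks chained. The number of regions (1194) was 904 to 1691, except 563 when only peaks at or above the median score of each list were kept. The median spacing (448 bp) followed the join distance, at 325 bp for 500 bp and 633 bp for 2000 bp, and was 354 bp with AB2 peaks chained. The median fold (4.50) was 5.36 for folds of at least 3, 6.58 above the median score, 5.98 with AB2 peaks chained, whose folds are on the AB2 scale, and 3.88 with all AB1 peaks chained, which adds unshared peaks. The median score ratio (1.63) was 1.56 above the median score, 1.56 for AB2 and 1.54 for all AB1 peaks. The share of regions with separate partners (99.2%) was 100% when AB2 covered at least 50% of each AB1 peak, 99.7% for folds of at least 3, 99.6% above the median score, 77.7% for AB2 and 63.3% for all AB1 peaks. The share of shared peaks in 2-peak regions (22.5%) was 18.2% at 500 bp, 23.7% at 2000 bp, 21.7% for folds of at least 3 and 20.1% above the median score. With AB2 peaks chained, the regions held 23.5% of the AB2 peaks that overlap an AB1 peak. With all AB1 peaks chained, they held 23.7% of all AB1 peaks, unshared ones included. The higher median fold among peaks with folds of at least 3 follows from that filter. Unshared AB1 peaks have no AB2 partner, so chaining all AB1 peaks lowers the share of regions with separate partners by construction. The cause of the other shifts was not tested. The antibodies were compared region by region, but each has 1 library, so replicate libraries could not be paired. Unknown depth and the list floors limit what can be said of weak second peaks.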
